A study of Mus musculus with 2 samples.

Results

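Heat shock proteins and the J-domain chaperones that work with them were followed in spatial gene expression data from mouse heart. The members were taken by symbol from the deposited feature list. They were all genes whose symbol begins with Hspa, Hspb, Hspd, Hspe, Hsph or Hsp90, or with Dnaja, Dnajb or Dnajc and a number. Hspbp1 and Hspbap1 are thus included. The pattern matched 68 symbols, and 63 of them reached 20 UMIs (unique molecular identifiers, the counted molecules) over both sections, out of 15236 genes at that level and 19465 genes in all. The only measured value in this rule was the floor on the summed count, but the rule was set with earlier results of these data known. The floor left out Dnajb7 (3 UMIs in the control and 2 in the transgenic section), Dnajc5g (7 and 5), Dnajb13 (4 and 6), Dnajc22 (4 and 7) and Dnajc6 (1 and 3). The members just above the floor were Dnajb8 (11 and 15), Hspb9 (16 and 14) and Dnajc5b (12 and 20). Hspa8 and Hsp90ab1, the constitutive cytosolic members of their classes, were not analysed here.

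The data hold 1 heart section of a control mouse, α-MHC-MerCreMer+/-, and 1 of a TOP2B transgenic mouse, α-MHC-MerCreMer+/- hTOP2B LSL/-. The transgene places a human TOP2B cDNA behind a CAG promoter and a floxed STOP cassette at the Rosa26 locus, and the α-MHC promoter limits the tamoxifen-inducible Cre to cardiomyocytes. Both mice carried the Cre, and both received 1 intraperitoneal dose of tamoxifen at 80 mg/kg when they were 6 weeks old. Formalin-fixed, paraffin-embedded (FFPE) tissue was cut at 5 µm and read with the Visium CytAssist assay, in which gene-specific probe pairs are caught on a slide covered with barcoded spots. Each spot takes in a small piece of tissue that may contain more than 1 cell type. Because each gene has its own probes, the order of levels between genes also depends on the probes, and shares of UMIs within a class are read only for how they differ between sections.

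The control section held 1256 spots over tissue and 14376300 UMIs, and the transgenic section 924 spots and 12953389 UMIs. Levels are UMIs per 1000000 UMIs of a section (CPM), and differences are log2 ratios of the transgenic CPM to the control CPM. Ranges in brackets are 95% intervals from an exact conditional binomial calculation, which cover counting error only. Since each genotype has 1 section, no test was made and the spread between animals is unknown. Each section was also cut at its centre into 4 quadrants, whose range shows the spread inside a section but not between animals. The median log2 ratio over the 15236 genes was 0.20, so a member at 0 lies below the typical gene, and other scalings of the totals moved that median down by 0.09 to 0.16. The mouse Top2b probe gave 1531 control and 1318 transgenic UMIs, and since it may not read the human cDNA it does not check the transgene.

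The marker lists placed both sections in heart muscle, with all 9 counted cardiomyocyte markers present, but the lists also differed between the sections. The cardiomyocyte list summed to between 53951 and 54480 CPM in the control quadrants and to between 31097 and 43251 in the transgenic ones, with 7 of 9 genes lower in the transgenic section. The fibroblast list was higher by 1.25 on the log2 scale (8 of 8 genes), the macrophage list by 0.95 (7 of 8) and the erythroid list by 3.25 (5 of 5). In the fibroblast list 6 of 8 genes lay above the all-gene median, and Col1a2 alone held 49.7% of its transgenic sum. The endothelial list differed by -0.09 (genes from Kdr at -0.92 to Pecam1 at 0.46). The mural list differed by -0.01, with genes on both sides, from Abcc9 at -1.58 to Cnn1 at 2.74. The atrial list had 665 and 991 UMIs, and the skeletal muscle list, most of it Acta1, had 3627 and 20102. Genes of all these lists were above 0 UMIs in both sections. In such summed tissue, fewer cells of a type and less RNA per cell cannot be told apart. The part of cell composition in the differences below was not tested.

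Heat shock proteins are chaperones, proteins that keep others from clumping and help them fold, and many of their genes are switched on by heat shock factors when unfolded protein builds up. Small heat shock proteins hold unfolding clients without using ATP, and heart muscle is rich in them because its filaments are under constant load. Hsp70 proteins bind and release exposed stretches of their clients in cycles driven by ATP, J-domain proteins bring them clients and trigger that cycle, and Hsp90 proteins finish the folding of kinases, steroid receptors and secreted proteins. Separate sets serve the cytosol, the endoplasmic reticulum (ER) and mitochondria, where Hspd1 and Hspe1 form the folding chamber and its lid.

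The promoters were searched for exact matches to letters through which such control is known to act. RefSeq windows (GRCm38.p6, 250 bases before to 50 after each gene's start) were read on both strands, and no mismatch was allowed. A gene without a match is therefore not shown to lack a working element. Of the 68 symbols 56 had at least 1 window, and the others, Hsp90aa1 among them, could not be searched. The heat shock element, here 3 alternating repeats written as GAANNTTCNNGAA, was found for 0.662% of all 27025 symbols with a window. Among the 56 members with a window it was found for 4, Hspd1, Hspe1, Hsph1 and Dnajb6. Its shorter form GAANNTTC, which every full element contains, was found for 9.04% of all symbols and for 14 of the 56 members. The ER stress element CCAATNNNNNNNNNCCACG was found for 0.137% of all symbols and for 3 of the 56 members, Hspa5, Hsp90b1 and Dnajc3. The first stretches below are those of the 4 genes with the full heat shock element, with the matched letters in capitals. Hspd1 and Hspe1 lie head to head, so their stretches are both strands of the same DNA and hold the same overlapping matches.
Hspe1, chr1:55088029-55088112, plus strand: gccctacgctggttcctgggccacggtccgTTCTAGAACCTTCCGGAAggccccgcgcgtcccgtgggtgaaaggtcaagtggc
Hspd1, chr1:55088023-55088106, minus strand: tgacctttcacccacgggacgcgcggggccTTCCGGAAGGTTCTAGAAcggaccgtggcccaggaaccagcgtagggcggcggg
Hsph1, chr5:149636266-149636330, minus strand: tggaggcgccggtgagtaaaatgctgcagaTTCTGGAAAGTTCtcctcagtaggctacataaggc
Dnajb6, chr5:29735822-29735900, plus strand: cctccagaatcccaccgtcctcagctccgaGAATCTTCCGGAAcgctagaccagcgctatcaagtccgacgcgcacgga
The next stretches show the shorter form in 2 genes with higher ratios, at 2 places in Hspb1, and the one of Hspa1b is letter for letter also that of Hspa1a at chr17:34972212-34972290 on the minus strand.
Hspb1, chr5:135887772-135887870, plus strand: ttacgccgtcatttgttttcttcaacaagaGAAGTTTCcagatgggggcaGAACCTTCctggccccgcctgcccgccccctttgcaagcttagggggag
Hspa1b, chr17:34959294-34959372, minus strand: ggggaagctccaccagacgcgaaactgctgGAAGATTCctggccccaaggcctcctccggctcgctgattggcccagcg
The ER stress element stood in each of the following, and in both orientations in Hsp90b1.
Hspa5, chr2:34771995-34772073, plus strand: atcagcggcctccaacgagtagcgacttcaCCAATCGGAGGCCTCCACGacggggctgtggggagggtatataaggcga
Hsp90b1, chr10:86705503-86705686, minus strand: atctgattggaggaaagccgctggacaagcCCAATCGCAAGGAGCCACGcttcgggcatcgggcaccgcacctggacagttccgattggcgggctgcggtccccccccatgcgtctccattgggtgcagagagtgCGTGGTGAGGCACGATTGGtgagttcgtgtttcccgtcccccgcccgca
Dnajc3, chr14:118937797-118937875, plus strand: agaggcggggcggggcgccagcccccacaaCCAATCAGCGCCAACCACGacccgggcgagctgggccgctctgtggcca

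Genes with the same element did not lie on the same side. Of the 4 carriers of the full heat shock element, Hspd1, Hspe1 and Hsph1 were lower in the transgenic section (-1.49, -1.05 and -0.87) and Dnajb6 was higher (0.51). The 14 carriers of the shorter form, which include these, were split as well. Hspa1b (2.81), Hspa1a (2.34), Hspb1 (1.70), Hspb3 (0.53) and Dnaja1 (0.08) were above 0. Dnaja4 (-1.26), Hspb6 (-0.43), Dnajc5g (-0.34, under the floor), Dnajc27 (-0.09) and Hspb8 (-0.01) were below 0. Of the 3 carriers of the ER stress element, Hspa5 and Hsp90b1 were lower (-0.63 and -0.46) and Dnajc3 was higher (0.54). A match is a description of letters and does not show that a factor binds there.

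As a whole the family had a median close to that of all genes, but single members lay far apart. Members made up 1.06% of control and 1.16% of transgenic UMIs, and their median log2 ratio was 0.17 against 0.20 over all genes. A level at least 2-fold higher than in the control was reached by 8 of 63 members (12.7%), where 13.7% of all genes reached it. A level at least 2-fold lower was reached by 6 of 63 (9.52%), where 5.61% of all genes did. All 4 transgenic quadrants lay above all 4 control quadrants for 24 members (38.1%, all genes 30.4%), and all lay below for 14 (22.2%, all genes 13.1%). The 8 higher members were Hspa1b, Hspa1l, Hspa1a, Hspb1, Hsp90aa1, Hspa2, Dnajc10 and Hspb11, and the 6 lower ones were Dnajc28, Hspd1, Dnaja4, Hspa12a, Dnajc15 and Hspe1. By UMIs the small heat shock proteins went from 50.4% to 63.7% of all member UMIs, while the Hsp70 class went from 14.8% to 9.54% and the Hspd1 and Hspe1 pair from 7.03% to 2.44%. These shares are without Hspa8 and Hsp90ab1, which were not analysed.

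**Figure D1:**
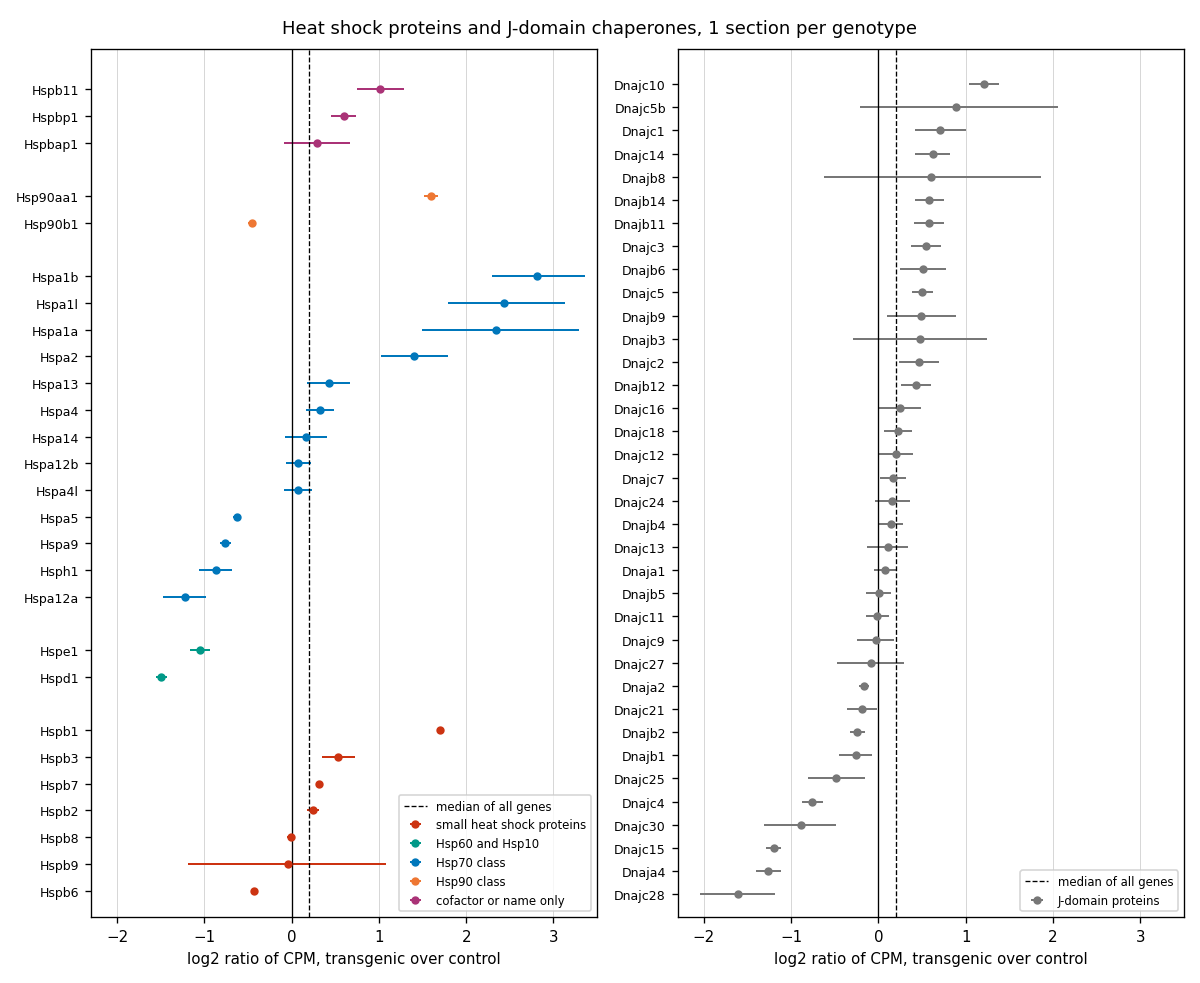
Log2 ratio of transgenic to control CPM (x axis) for each of the 63 members, ordered within class, with lines for the exact 95% counting interval and a dashed line at the all-gene median of 0.20. Hspa1b (2.81) and Dnajc28 (-1.61) are the ends of the range, and the members of most classes lie on both sides of the dashed line.

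Among the small heat shock proteins Hspb1 stood apart. Hspb1, which binds actin filaments and holds unfolding clients, had 11252 UMIs in the control and 32952 in the transgenic section. That is 783 and 2544 CPM, or 3.25-fold higher, a log2 ratio of 1.70 [1.67, 1.73]. Its control quadrants had 717, 734, 809.8 and 873 CPM and its transgenic quadrants 1966, 2470.2, 2656 and 3116, so the quadrants were far from overlapping and the transgenic ones were less even. Spots showed the same shift, with a 10th percentile, median and 90th percentile of 4.42, 7.61 and 11.6 Hspb1 UMIs per 10000 in the control and of 11.7, 23.3 and 39.1 in the transgenic section. The 10th percentile of transgenic spots was thus above the 90th percentile of control spots.

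The other small members differed less and in both directions. Hspb7, a heart and muscle protein of the sarcomere, went from 2395 to 2983 CPM, a log2 ratio of 0.32 [0.30, 0.34], with quadrants of 2224 to 2577.5 against 2748 to 3179 CPM. Its ratio relative to the all-gene median was only 0.11. Hspb6, which is known as a target of cyclic nucleotide signalling in heart, went from 1381 to 1028 CPM (-0.43 [-0.46, -0.39]), and all transgenic quadrants (942 to 1159 CPM) lay below the control ones (1331 to 1436). Hspb8, the partner of the cochaperone Bag3 in clearing damaged filament proteins, had 519 and 517 CPM and overlapping quadrants, and its sign changed between settings. Hspb2 and Hspb3, which form a complex in muscle, were at 0.25 [0.18, 0.32] and 0.53 [0.34, 0.72]. Hspb9, known from testis, was near the floor with 16 and 14 UMIs.

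The mix of small heat shock transcripts differed between the sections. Hspb1 made up 14.7% of the class in the control and 34.5% in the transgenic section, with quadrants of 13.7% to 15.9% against 29.0% to 39.0%. Hspb6 went from 25.9% to 13.9% and Hspb7 from 44.9% to 40.4%. The class sum was 5331 and 7379 CPM, a log2 ratio of 0.47 and of 0.27 relative to the all-gene median. The related Cryab, an abundant small chaperone of heart muscle, is a crystallin by name and not a member; it had 3608 and 2471 CPM (-0.55) and lay below in all quadrants, on the side of Hspb6.

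**Figure D2:**
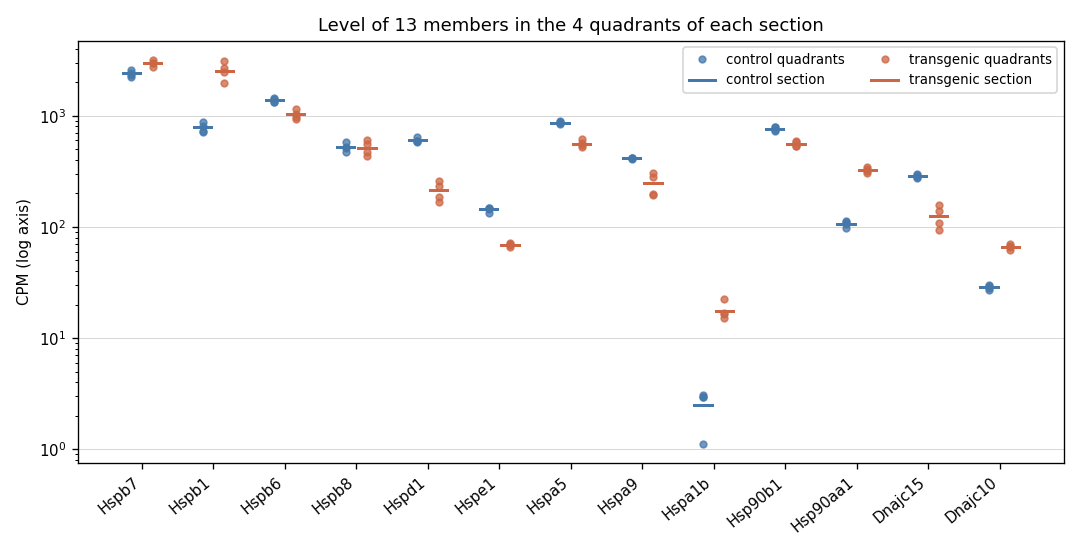
CPM on a log axis for 13 members, with points for the 4 quadrants of each section and bars for the level of the whole section. Hspb1, Hsp90aa1, Hspa1b and Dnajc10 are higher in every transgenic quadrant and Hspd1, Hspe1, Hspa5 and Hspa9 lower in every one, whereas the quadrants of Hspb8 overlap.

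The mitochondrial folding pair was lower throughout the transgenic section. Hspd1 (Hsp60), the chamber subunit, had 599.7 CPM in the control and 213 in the transgenic section, from 8621 and 2759 UMIs. The log2 ratio was -1.49 [-1.56, -1.43], a control level 2.81-fold the transgenic one. Its quadrants ran from 583 to 642 CPM in the control and from 167 to 261 in the transgenic section, without overlap. Hspe1 (Hsp10), the lid, had 143 and 69.1 CPM, a ratio of -1.05 [-1.17, -0.94], and narrow quadrants of 132 to 149 against 65.6 to 71.5 CPM. Together these genes of the shared promoter stood at -1.60 relative to the all-gene median.

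The difference in Hspd1 also showed in the share of spots that held it. At the measured depth 98.8% of control and 88.7% of transgenic spots had an Hspd1 UMI, and after thinning every spot to 8134 UMIs the shares were 99.1% and 80.5%. Thinning left out 140 control and 78 transgenic spots that were shallower. For Hspe1 the thinned shares were 69.1% and 42.4%. The cardiomyocyte markers, which differed by -0.53, moved the same way, and among the spots richest in those markers in each section Hspd1 was at -1.25. Those spots were picked within each section and were not matched in cardiomyocyte content. The median spot had 5.35% of its UMIs from these markers in the control and 3.72% in the transgenic section. The part of cell composition in the Hspd1 difference was thus not tested.

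Within the Hsp70 class Hspa1b, Hspa1l and Hspa1a had the highest ratios of all members. Hspa1a and Hspa1b, the heat-inducible cytosolic pair, are near-identical over long stretches, so the split of counts between them is uncertain. Hspa1l is a related neighbour best known from testis, and whether its probes also read the pair was not tested. Hspa1b had 36 control and 228 transgenic UMIs, 2.50 and 17.6 CPM, a log2 ratio of 2.81 [2.30, 3.36]. Hspa1a had 14 and 64 UMIs (2.34 [1.49, 3.29]) and Hspa1l 24 and 117 (2.44 [1.79, 3.13]). For each of them every transgenic quadrant was above every control quadrant, with 15.1 to 22.6 against 1.11 to 3.05 CPM for Hspa1b. Hspa2, best known from germ cells, had 5.77 and 15.3 CPM (1.40 [1.03, 1.79]).

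These low members were seen in few spots. An Hspa1b UMI was found in 2.79% [1.95, 3.85] of control and 21.6% [19.0, 24.4] of transgenic spots (Clopper-Pearson intervals), and after thinning in 1.99% and 13.3%. The thinned shares were 0.70% and 3.92% for Hspa1a and 1.21% and 7.22% for Hspa1l. The other 7 members known mainly from testis show how low shares look in the same assay, with other probes. Their thinned shares ran from 0.20% (Dnajb7) to 1.51% (Dnajb3) in the control and from 0.12% (Dnajb7) to 2.25% (Dnajb3) in the transgenic section. The control shares of Hspa1a and Hspa1l were within that range and cannot be told from background, that of Hspa1b was above it, and the transgenic shares of all 3 were above it. However, Hspa1l is itself known mainly from testis, and with it the transgenic range would reach 7.22%, which takes in Hspa1a at 3.92%. Dnajb7, Dnajb13 and Dnajc5g are under the floor of 20 UMIs and could only be low. A share above the range is thus not shown to be above background.

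Of the 3 Hsp70 members of organelles, Hspa5 and Hspa9 were lower and Hspa13 was higher. Hspa5 (BiP), the main chaperone of the ER, had 866 and 559.5 CPM, a log2 ratio of -0.63 [-0.67, -0.59], with quadrants of 839 to 892 against 520.5 to 621 CPM. Hspa9 (mortalin), the motor of mitochondrial protein import, had 416 and 246 CPM (-0.76 [-0.82, -0.70]). Its control quadrants were within 409.9 to 420.2 CPM, while the transgenic ones fell into values of 194 and 198 on one hand and 282 and 303 on the other. Hspd1 and Dnajc15 had their lower transgenic values in the same quadrants.

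The remaining members of the class lay on both sides of 0, and those of lowest ratio were cytosolic. Hsph1, an Hsp110 that recharges Hsp70 with ATP and is itself heat-inducible, had 49.4 and 27.0 CPM (-0.87 [-1.06, -0.68]). Hspa12a, a distant relative, had 33.2 and 14.2 CPM (-1.22 [-1.48, -0.98]), and all quadrants of both genes were lower. Hspa4, another Hsp110, was at 0.32 and Hspa13, an ER member, at 0.42, both with all quadrants higher. Hspa4l (0.07), Hspa14 (0.17) and Hspa12b (0.08), a gene of blood vessel endothelium, had overlapping quadrants and changed sign with the setting. Of 13 class members 9 were above 0 and 4 below, or 7 and 6 after TMM scaling, where 63.2% of all genes were above 0. Against the all-gene median 6 lay above and 7 below. The class median was 0.17, yet the class sum was at -0.50 because Hspa5 and Hspa9 hold most of its counted UMIs. Hspa8, not analysed here, is in neither value.

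The Hsp90 class, read without Hsp90ab1, held a cytosolic and an ER member that differed in opposite directions. Hsp90aa1, the inducible cytosolic form, had 107 and 323 CPM, a 3.02-fold higher level and a log2 ratio of 1.60 [1.51, 1.68]. Its quadrants were even, with 96.9 to 112 CPM in the control and 305 to 343 in the transgenic section. It was detected in 68.2% of control and 93.9% of transgenic spots, or 57.4% and 92.1% after thinning. Hsp90b1 (Grp94), which folds secreted and membrane proteins in the ER, had 762 and 556 CPM (-0.46 [-0.50, -0.41]), also without overlap of quadrants. Hsp90aa1 therefore went from 12.3% to 36.7% of the UMIs of both genes, while their sum hardly differed (869 and 879 CPM, a log2 ratio of 0.02 that became -0.14 after TMM scaling).

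The J-domain class was the most varied, with 36 counted members, a median log2 ratio of 0.16 and a sum of 1995 and 1832 CPM. Of its members 23 were above 0 and 13 below, or 19 and 17 after TMM scaling, and 16 lay above the all-gene median and 20 below. The lowest was Dnajc28 with 14.3 and 4.71 CPM (-1.61 [-2.04, -1.19]), followed by Dnaja4, a cytosolic cochaperone of Hsp70, with 103 and 42.8 CPM (-1.26 [-1.40, -1.12]). Dnajc15, an inner-membrane protein of mitochondria, had 287 and 125 CPM (-1.20 [-1.28, -1.11]), and Dnajc4 had 113 and 66.7 CPM (-0.76 [-0.88, -0.64]). In these genes all quadrants were lower, and the transgenic quadrants of Dnajc15 spread from 93.8 to 157 CPM where the control ones spread from 275 to 299.

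Smaller differences were found in the other cytosolic cochaperones. Dnajb1, the heat-inducible partner of Hspa1a and Hspa1b, was at -0.26 [-0.45, -0.07] from 545 and 410 UMIs, with all quadrants lower. It thus lay on the other side of 0 from the inducible Hsp70 genes. Dnaja2, the J-domain member with the most UMIs, had 403 and 359 CPM (-0.17 [-0.22, -0.11]), and Dnajb2 (-0.24) and Dnajc21 (-0.19) were near it, all with overlapping quadrants. Dnajb6, a suppressor of protein aggregation tied to muscle disease, was at 0.51, and Dnajc5, which serves vesicle fusion, at 0.50.

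When 200 UMIs in 1 section were enough, the 6 highest J-domain members belonged to the ER. This rested on the limit, since Dnajc1 passed it by its transgenic count alone (164 and 242 UMIs). With 200 UMIs asked of both sections, the cytosolic Dnajb6 (0.51, from 213 and 273 UMIs) would replace Dnajc1 among the 6. At the floor of 20 UMIs, Dnajc5b (0.89 [-0.22, 2.05]) and Dnajb8 (0.60 [-0.62, 1.87]), neither of the ER, would be among the 6 highest. The counting intervals of both include 0. Dnajc10 (ERdj5), which opens wrong disulfide bonds, had 28.7 and 66.3 CPM, a log2 ratio of 1.21 [1.04, 1.38] with quadrants of 27.2 to 30.1 against 62.4 to 70.8 CPM. Its thinned share of spots was 20.7% in the control and 42.7% in the transgenic section. Dnajc1 (0.71 [0.42, 1.01]), Dnajc14 (0.62), Dnajb14 (0.58), Dnajb11 (0.58) and Dnajc3 (0.54 [0.37, 0.72]) followed, all with every quadrant higher. Dnajb11 hands unfolded chains to Hspa5, and Dnajc3 is both a cochaperone and an inhibitor of the ER stress kinase PERK. Dnajb12 (0.43), Dnajb9 (0.49), Dnajc16 (0.25) and Dnajc18 (0.23) were on the same side, and Dnajc25 (-0.48, overlapping quadrants) was the exception.

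Of the 3 members that share only the name or act as cofactors, Hspb11, a protein of cilium transport, was at 1.01 [0.75, 1.28] from 183 and 333 UMIs. Hspbp1, an exchange factor of Hsp70, was at 0.60 and Hspbap1 at 0.29, and all quadrants of the 3 genes were higher.

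Ordered by compartment, the mitochondrial members lay on the lower side and most ER members on the higher side. All 7 mitochondrial members were below 0 under every scaling tried, with a median of -0.89, though Dnajc11 was at -0.01, had overlapping quadrants and changed sign with the choice of spots. Dnajc30, with 154 and 75 UMIs, was at -0.89 and had all quadrants lower. Their sum was 1636 and 791 CPM, or -1.25 relative to the all-gene median. Of 14 ER members 11 were above 0 and 3 below under every scaling, with a median of 0.46, and the same counts held against the all-gene median. Their sum was nevertheless lower (1933 and 1557 CPM, -0.31) because the abundant Hspa5 and Hsp90b1 were among the lower ones. The 11 J-domain proteins of the ER alone summed to 287 and 418 CPM (0.54), with 10 of 11 above 0. Cytosolic members had a median of 0.17 and a sum at 0.40, in which Hspb1 and Hspb7 weigh most.

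**Figure D3:**
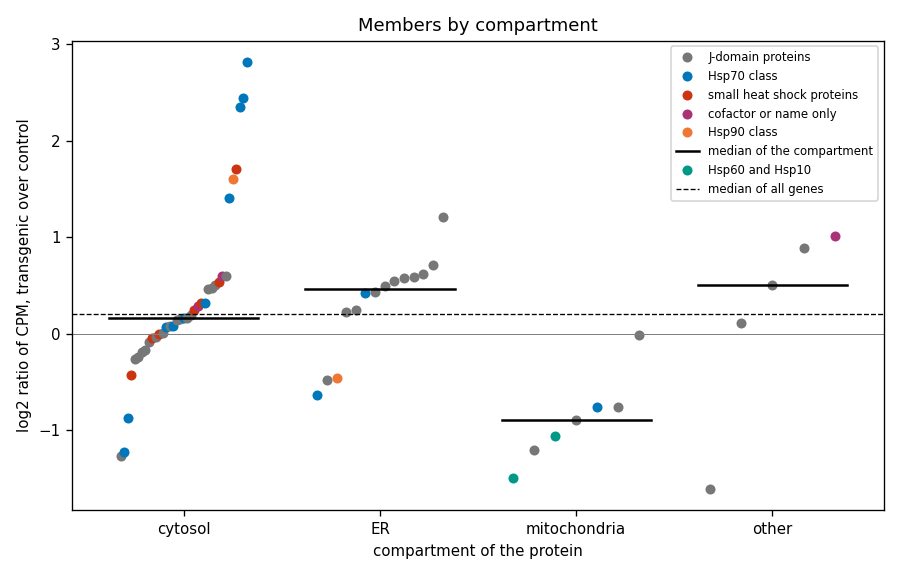
Log2 ratio of transgenic to control CPM (y axis) of the 63 members by compartment of the protein (x axis), coloured by class, with a bar at each compartment's median and a dashed line at the all-gene median. The 7 mitochondrial members lie at or below 0, and in the ER the 3 members below 0 are Hspa5, Hsp90b1 and Dnajc25.

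Partner lists from outside the family were read against the all-gene median of 0.20. Of 14 counted mitochondrial folding and proteolysis genes all 14 lay below it and 13 were below 0 (median -0.18, from -0.82 for the import subunit Timm44 to 0.19 for the exchange factor Grpel2), among them Trap1, the mitochondrial Hsp90, at -0.10. The 21 ER folding and stress genes lay at the general level, with 12 above the all-gene median and 9 below (median 0.23), from P4hb, a disulfide isomerase, at 1.06 down to Sdf2l1 at -0.65, with the ER Hsp110 Hyou1 at -0.05. The 8 subunits of the cytosolic TRiC chaperonin ranged from -0.21 (Cct7) to 0.42 (Cct8), with 1 above the all-gene median and 7 below. The 5 prefoldin subunits ranged from -0.73 (Pfdn6) to -0.00 (Vbp1), all 5 below that median.

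The cochaperones of Hsp70 and Hsp90 had a median of -0.13, with 10 of 23 above 0, 5 above the all-gene median and 18 below it. Their range was the widest of these lists. Fkbp5 and Fkbp4, which bind Hsp90 in steroid receptor complexes and are known to act on them in opposite ways, were its ends. Fkbp5 had 337 and 1888 UMIs (2.64) and Fkbp4 7978 and 2152 (-1.74). Bag3, the partner of Hspb8, was at -0.43, Unc45b, the myosin chaperone of muscle, at -0.66, Stip1, which links Hsp70 to Hsp90, at -0.36, Stub1, the ubiquitin ligase of both, at 0.17 and Cdc37, the kinase adaptor, at 0.02. Of the factors that regulate the family Hsf2 (0.17), Hsf4 (0.66) and the inhibitor Hsbp1 (0.28) were counted, and Hsf1 was not analysed here.

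The maps added where in the tissue the levels differed. In the transgenic section 53 spots, against 4 in the control, had at least 10% of their UMIs from erythroid markers. These blood-rich spots held 2.27% of the section's UMIs and formed a patch on the map. It looked to lie inside the chamber, but the place was read from the map alone and no histology was used. Members of several classes were low in them, with 825 CPM of Hspb1, 930.2 of Hspb7 and 353 of Hspb6. Hspd1 had 61.1 CPM there, Hspa5 238 and Hsp90aa1 95.1. Since these spots were picked for a high erythroid share of UMIs, the CPM of every other gene is lowered in them. The limit of 10% was set after the maps were seen, and 16 spots lay within a factor of 2 of it. Leaving these spots out did not turn the direction of a class or compartment sum or move one by over 1.5 times, but it changed Moran's I and the correlations across spots, so these and the levels by distance from the edge are given both ways.

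**Figure D4:**
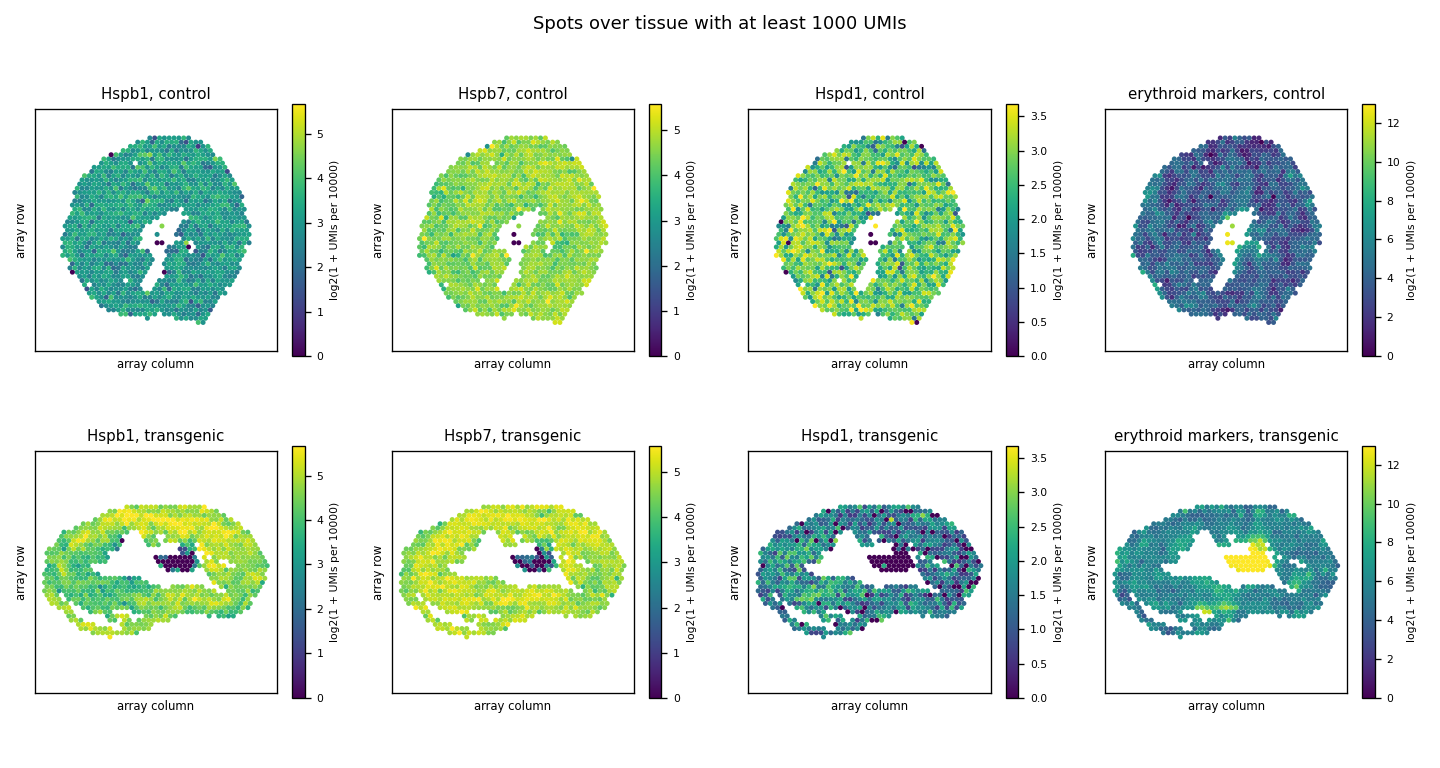
Spots drawn at their array position (row and column) and coloured by log2(1 + UMIs per 10000) of Hspb1, Hspb7, Hspd1 and the summed erythroid markers, control above and transgenic below, with 1 colour scale per column of panels whose top colour also takes the highest values. Outside the patch of bright erythroid signal Hspb1 is brighter throughout the transgenic section and Hspd1 is darker, and that patch is dark for the 3 chaperones.

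The deposited Moran's I, which is near 0 for a gene scattered at random and near 1 for one whose neighbouring spots are alike, was higher in the transgenic section for the abundant members. It went from 0.06 to 0.65 for Hspb1, from 0.15 to 0.62 for Hspb7 and from 0.10 to 0.56 for Hspb6, and from 0.06 to 0.23 for Hspd1. Genes with at least 2000 UMIs as a whole had medians of 0.02 and 0.23, so the value of Hspd1 was that of a typical gene. Moran's I was then recomputed on log2 levels with and without blood-rich spots. In the transgenic section Hspb1 had 0.78 with and 0.62 without them, while Hspb7 went to 0.36, Hspb6 to 0.26, Hspb8 to 0.26, Hspa9 to 0.15 and Hspd1 to 0.12. Hspa5 (0.07), Hsp90aa1 (0.07), Hsp90b1 (0.03) and Dnaja2 (0.03) were close to 0 without them. Hspb1 thus kept a patchy pattern outside the blood-rich spots of the transgenic section, while its control value was 0.06 without such spots. It had fewer UMIs in the control (11252 against 32952), and Moran's I at matched counts was not computed.

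Distance from the edge was counted in spots from any border of the tissue, including gaps inside it. At 3 to 4 steps inside the transgenic section 5 of the 7 small members had a higher level than at the edge, and Hspb2 and Hspb9 did not. Hspb2 was highest at 1 to 2 steps, with 264, 271 and 251 CPM from the edge inward. The rise was not limited to this class, since all members summed to 10859 CPM at the edge and 12552 at 3 to 4 steps. Mitochondrial members had 762 and 874 CPM and ER members 1534 and 1551. How many of all genes rose inward was not counted. Hspb1 had 2355 CPM at the edge, 2553 at 1 to 2 steps and 2798 at 3 to 4 steps inside, against 768, 739 and 799 in the control. Hspb7 had 2746, 2972 and 3365 CPM in the transgenic section and 2309, 2365 and 2430.1 in the control. Hspb6 had 901, 1044 and 1171 CPM and in the control 1256, 1383 and 1391, so it was lower at the edge in both sections. Hspd1 had 202, 206 and 248 CPM, and in the control 571, 607 and 587. The control also had 268 spots at 5 or more steps, a depth that the transgenic section did not reach. There Hspb1 had 838, Hspb7 2451, Hspb6 1443 and Hspd1 621 CPM, the highest control values of these genes by ring.

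The gradient was also seen, smaller, in the cardiomyocyte markers, and erythroid markers ran against it. Levels at 3 to 4 steps over those at the edge were 1.19 for Hspb1, 1.23 for Hspb7, 1.30 for Hspb6, 1.23 for Hspd1 and 1.08 for the summed cardiomyocyte markers. The same ratios in the control were 1.04, 1.05, 1.11, 1.03 and 1.02. Without blood-rich spots the transgenic ratios were 1.16, 1.19, 1.27, 1.19 and 1.05 in that order. Erythroid markers had 32908 CPM at the transgenic edge and 8150.3 at 3 to 4 steps, or 9601 and 6579.9 without blood-rich spots. In each ring that both sections had, the difference between them kept its direction for Hspb1, Hspb7, Hspb6 and Hspd1.

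Across spots, the levels of members were compared by Pearson's r on log2(1 + UMIs per 10000), over 1249 control and 921 transgenic spots that share a library and differ in depth. In the control r was low for all pairs, and Hspb1 was most like Hspb7 (0.14), Hspb8 (0.11) and Hspb6 (0.09). Hspb7 was most like Hspb6 (0.19), Hspb1 (0.14) and Hspd1 (0.13). In the transgenic section Hspb1 was most like Hspb7 (0.75), Hspb6 (0.65) and Hspb8 (0.58), and Hspb7 was most like Hspb1 (0.75), Hspb6 (0.73) and Hsp90b1 (0.58). Without blood-rich spots (868 left) these values were far lower, 0.30 for Hspb1 with Hspb7, 0.21 with Hspb6 and 0.36 with Hspb8, and -0.04 for Hspb7 with Hsp90b1. Over all 921 transgenic spots these genes also followed depth. Their r with the log2 UMIs of the spot was 0.61 for Hspb1, 0.62 for Hspb7, 0.54 for Hspb6 and 0.44 for Hspb8. In the control it was 0.10, 0.26, 0.17 and 0.15. The part of depth in the likeness was not tested.

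Leaving out the blood-rich spots also turned the sign of several pairs. For Hspb1 with Hspd1 r went from 0.16 to -0.25 and for Hspb1 with Hspa9 from 0.20 to -0.24. With the summed cardiomyocyte markers Hspb1 went from 0.60 to -0.42, whereas Hspb7 stayed positive (0.82 and 0.29) and so did Hspd1 (0.45 and 0.31). With the fibroblast markers Hspb1 stayed positive (0.69 and 0.34), while Hspb7 went from 0.57 to -0.33 and Hspd1 from 0.11 to -0.30. With Nppa, the atrial natriuretic peptide that stressed ventricle re-expresses, Hspb1 had 0.56 and 0.39. Over all spots the other members compared ran from -0.03 (Hspd1) to 0.40 (Hspb7) with Nppa. There Hspb1 also had 0.59 with the mural and 0.53 with the macrophage markers, so its positive r was not particular to Nppa. In the 460 transgenic spots poorest in erythroid markers the values of Hspb1 were alike, -0.25 with Hspd1, -0.45 with the cardiomyocyte markers and 0.49 with Nppa. These r values describe spots of 1 section, in which shares of a fixed total are tied to each other, and no p is given.

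**Figure D5:**
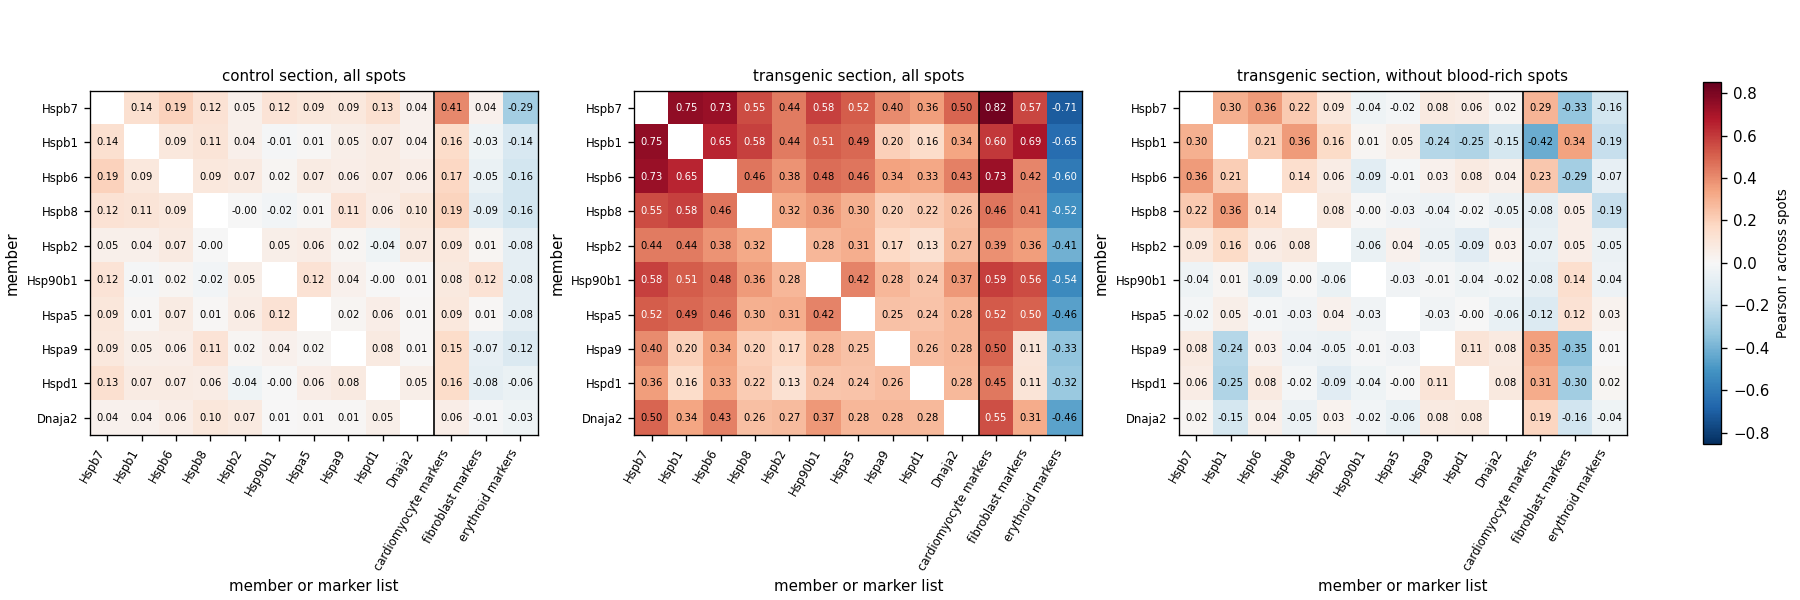
Pearson r across spots (colour and printed value) between the 10 members with at least 2000 UMIs in each section and with the summed cardiomyocyte, fibroblast and erythroid markers, for the control, for the transgenic section and for the transgenic section without blood-rich spots. The high values of the middle panel fall away in the right panel, where Hspb1 is negative with Hspd1 (-0.25), Hspa9 (-0.24) and the cardiomyocyte markers (-0.42).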

How the data were processed

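FFPE heart sections of 1 control and 1 TOP2B transgenic mouse were profiled with Visium CytAssist. The deposited values are whole-number UMI counts of each gene in each spot over tissue, made with Space Ranger 2.0.0 and without normalization. The authors also deposited a score for each gene and section, Moran's I. The submitters' processing notes name GRCm39 and mm39 as the build. Promoter sequences are RefSeq windows of another build, GRCm38.p6.

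UMIs were summed per section, quadrant, ring from the edge and spot class, and divided by the total (CPM). Ratios carry exact conditional binomial and shares of spots Clopper-Pearson 95% intervals, both for counting error only. The ratio intervals were run on simulated counts that hold counting error alone, the error they are built for. That run says nothing about the spread between sections or animals. The intervals for shares of spots were not tested. PCR duplicates were collapsed by UMI. Spots are not replicates, so no test was made. A median of 11336 UMIs per control spot and 14531 per transgenic spot limits the precision of single spots.

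Members, classes, partner and marker lists were chosen with earlier results of these data known. All members of the small, Hsp60, Hsp70 and Hsp90 classes were named, of the J-domain class the 8 highest and 8 lowest with at least 200 UMIs in either section and the 5 most abundant, the other members of the ER and mitochondria, and of each partner list the ends and genes set by name. Alternatives were edgeR 4.0.16 TMM and DESeq2 1.42.0 size factors (R 4.3.3), totals that leave out the 50 most abundant genes, spots away from the edge, the 50% of spots richest in cardiomyocyte markers, the mean over spots with at least 1000 UMIs, 1 CPM added to both sections and minima of 1 and 200 UMIs. The 50% of spots poorest in erythroid markers and all spots without blood-rich ones were added after the data were seen. The work was done in Python 3.11.15 with pandas 2.3.3, scipy 1.17.1 and numpy 2.4.6.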

Additional observations from a re-analysis of the deposited data

How the results depend on the processing

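Class and compartment sums, given relative to the all-gene median, kept their direction under each choice of spots, and scalings of the totals cannot move them. As plain CPM ratios, the Hsp90 class went from 0.02 to -0.14 with TMM, -0.13 with DESeq2 and -0.07 without the 50 most abundant genes. In spots away from the edge the small heat shock proteins were at 0.29 and the cytosolic members at 0.22. In the spots richest in cardiomyocyte markers the values were 0.28 for small heat shock proteins, -1.37 for Hspd1 and Hspe1, -0.63 for the Hsp70 class, -0.15 for the Hsp90 class, -0.23 for the J-domain class, 0.22 for cytosolic, -0.48 for ER and -0.996 for mitochondrial members. The mean over spots gave 0.25 for small heat shock proteins. The spots poorest in erythroid markers gave -0.73 for the Hsp70 class and -1.29 for mitochondrial members. The cause of these shifts was not tested. Members at least 2-fold higher numbered 6 to 9 and at least 2-fold lower 6 to 8 over the settings. The share of all genes past the same folds is given for plain CPM alone (13.7% and 5.61%). The counts under other settings are therefore not read against a general rate. Of the 53 members named by rule 47 kept their sign under all settings, and Dnajc11, Hspa12b, Hspa14, Hspa4l, Hspb8 and Hspb9 did not. Dnaja1, outside these 53, went from 0.08 to -0.08 with TMM. Size was less stable than sign. Of the 53 members 20 were counted as moved with TMM, 20 with DESeq2 and 18 in the spots richest in cardiomyocyte markers. The scalings shift every log2 ratio by the same amount, -0.16 with TMM and -0.15 with DESeq2. Their counts therefore do not show members moving against each other, and are unlike the count for a choice of spots. No paired analysis was possible because each genotype has 1 section, and none could be left out. At these depths members under about 200 UMIs, such as Hspa1a and Hspa2, have wide counting intervals.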
